A study of Mus musculus with 4 samples.

Results

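Complex I (NADH:ubiquinone oxidoreductase) is the entry point of the mitochondrial respiratory chain, and its nuclear-encoded subunits were followed here in mouse embryos injected with siRNA against Uqcc3. The members were chosen by symbol: 35 genes of the core, accessory and membrane-arm subunits, matched to the gene name column of the deposited tables. All 35 were found, each as 1 row, among 47445 gene identifiers. The study compared 2 libraries of control embryos with 2 libraries of Uqcc3-depleted embryos, all C57BL/6N and collected at the late 2-cell stage with normal morphology, from female mice aged 8 weeks. Per the labels' protocols, the depleted group received siRNA against Uqcc3 at 5 µM and the control group a negative-control siRNA at 5 µM, both at 8 hpi. In contrast, "none" is the treatment label of the controls, called normal embryos in the design text, which leaves the injection of the controls stated in 1 source alone. Only 1 siRNA against Uqcc3 is named, knockdown leaves part of the transcript, and the sources used here do not give the number of embryos per library. Nothing says that replicates came from separate litters or injection days, so each p-value reflects only how far these libraries spread, and that spread may be technical.

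Complex I takes electrons from NADH in its matrix arm, passes them along iron-sulfur clusters to ubiquinone, and pumps protons through its membrane arm. The membrane core is encoded by the mitochondrial genome. The catalytic core of the matrix arm and all accessory subunits are encoded in the nucleus and imported. Cleavage-stage embryos carry mitochondria inherited from the oocyte and depend on pyruvate oxidation. Uqcc3 is an assembly factor of complex III, the next proton pump of the chain, which can join complex I in supercomplexes.

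The promoter windows of 4 subunits are shown because the results turn on these genes. Ndufb7, Ndufs8 and Ndufa12 had the smallest p-values, and Ndufv1 was the subunit with both siRNA libraries above both controls. Each window runs from 250 bases before to 50 bases after the RefSeq start, 5′ to 3′ on the gene's strand (GRCm38.p6). Capitals mark matches, on either strand, to CCGGAAG (the ETS site bound by GABPA). Also searched on both strands were TGCGCA (the half-site of NRF1) and AAGATGG (the core of the YY1 site). GABPA, NRF1 and YY1 are known activators of nuclear respiratory genes.
Ndufb7, chr8:83566508-83566807, plus strand: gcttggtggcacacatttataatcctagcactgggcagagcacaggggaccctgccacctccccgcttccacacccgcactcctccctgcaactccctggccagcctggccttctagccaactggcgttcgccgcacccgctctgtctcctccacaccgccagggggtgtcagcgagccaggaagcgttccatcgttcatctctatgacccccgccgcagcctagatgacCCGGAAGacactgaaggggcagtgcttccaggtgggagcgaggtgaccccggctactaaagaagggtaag
Ndufs8, chr19:3912725-3913024, minus strand: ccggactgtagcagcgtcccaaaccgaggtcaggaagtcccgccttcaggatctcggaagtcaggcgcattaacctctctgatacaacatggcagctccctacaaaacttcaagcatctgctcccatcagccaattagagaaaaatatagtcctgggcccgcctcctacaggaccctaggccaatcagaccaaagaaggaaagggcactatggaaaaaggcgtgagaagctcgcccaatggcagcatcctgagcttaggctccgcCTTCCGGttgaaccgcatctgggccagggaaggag
Ndufa12, chr10:94198785-94199084, plus strand: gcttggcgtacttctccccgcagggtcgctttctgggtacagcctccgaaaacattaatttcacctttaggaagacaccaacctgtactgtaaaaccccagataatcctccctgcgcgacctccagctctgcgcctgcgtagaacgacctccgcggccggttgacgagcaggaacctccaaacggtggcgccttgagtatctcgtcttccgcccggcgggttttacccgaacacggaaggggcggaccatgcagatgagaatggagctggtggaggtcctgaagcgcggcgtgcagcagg
Ndufv1, chr19:4012706-4013005, minus strand: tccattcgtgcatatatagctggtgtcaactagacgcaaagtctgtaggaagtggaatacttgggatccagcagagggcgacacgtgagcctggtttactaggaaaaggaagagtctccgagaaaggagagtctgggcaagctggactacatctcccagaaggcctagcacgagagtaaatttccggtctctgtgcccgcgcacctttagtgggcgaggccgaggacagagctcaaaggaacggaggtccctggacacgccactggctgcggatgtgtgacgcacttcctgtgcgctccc
The first 2 windows each hold 1 match to CCGGAAG, and the windows of Ndufa12 and Ndufv1 hold none of the 3 motifs. RefSeq windows were matched for 32 of the 35 members. CCGGAAG occurred in 4 of the 32 (12.5%), against 8.86% of all 32851 windows of this length. TGCGCA occurred in 10 members (31.2%) against 7.76% of all windows, and AAGATGG in 7 (21.9%) against 6.34%. The units differ: a member counted once if any of its windows matched (34 windows for 32 members), and the background counts each window. That background was not limited to the tested genes. Of 17 matched members whose siRNA libraries were both under the controls, 4 held CCGGAAG, 5 TGCGCA and 5 AAGATGG. Among the 15 other members the counts were 0, 5 and 2. The windows of members averaged 58.3% G and C bases against 53.8% over all windows, and these matches describe letters, not binding.

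The libraries were not alike in quality. Implied depth, in fragments per FPKM and kilobase of transcript, was 14.1 and 15.7 for control replicates 1 and 2, with 10.1 and 10.7 for siRNA replicates 1 and 2. Genes at 1 FPKM or more (fragments per kilobase of transcript, scaled to library size) numbered 11818 to 12202 in the controls and siRNA replicate 1, and 9771 in siRNA replicate 2. The correlation of siRNA replicate 2 with another library, taken over log2 values of genes and so not over replicates, was at most 0.651. For each of the 3 other libraries the highest correlation was 0.872 or 0.875. Uqcc3 (ENSMUSG00000071654.5, chromosome 19, 8880016 to 8880933 in mm10) measured 147 and 211 FPKM in control libraries and 23.7 and 19.8 FPKM with siRNA. Both siRNA libraries were thus low for the targeted gene, at 12.1% of the control mean (log2 fold change -2.97, SE 0.63, limma adjusted p = 0.745). Of 17 listed 2-cell markers 15 were found, and their summed level was 1259 and 1632 FPKM in the controls and 837 and 450.2 FPKM with siRNA. The 15 oocyte and maternal markers summed to 11976 and 14249 FPKM in the controls and 10154 and 4608 FPKM with siRNA, so both lists were lower in both siRNA libraries. Blastocyst markers summed to 2.19 to 11.6 FPKM. Cumulus and granulosa markers summed to 1.36 to 14.2 FPKM, with Fshr, Star and Amh listed at 0 in all 4 libraries. Sperm markers summed to 25.8 to 50.9 FPKM and blood markers to 9.17 to 34.5 FPKM, in both cases lowest in siRNA replicate 2.

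Most complex I subunit transcripts were lower on average with siRNA, but no subunit passed the test. Of the 35 subunits, 30 had a lower mean log2 level with siRNA and 5 a higher one (21 to 24 lower under 4 other scalings of the libraries), where 64.1% of all tested genes were lower. In 18 subunits (51.4%) both siRNA libraries lay below both controls, where 30.0% of all genes did so. In 1 subunit, Ndufv1, both lay above, where 8.60% of all genes did so, and in the other 16 the groups overlapped. The median log2 difference was -0.84 for the subunits and -0.39 for all 12390 tested genes. Here and below, a log2 fold change is siRNA minus control on the log2(FPKM + 1) scale, which understates changes of low genes. All 35 subunits met the filter of 1 FPKM in at least 2 libraries.

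In limma, 0 of the 35 passed an adjusted p of 0.05 (smallest 0.745), and the background was 0.00% of all genes. At an unadjusted p under 0.05, 3 subunits were lower (Ndufb7, Ndufs8 and Ndufa12) and 0 higher, where 5.96% of all genes passed, 5.21% lower and 0.743% higher. With 2 libraries against 2, an exact permutation test of a single gene cannot give a two-sided p below 0.333. In bulk libraries, fewer cells holding a transcript and less of it per cell cannot be told apart. Values scaled to library size do not give amounts per embryo.

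**Figure D1:**
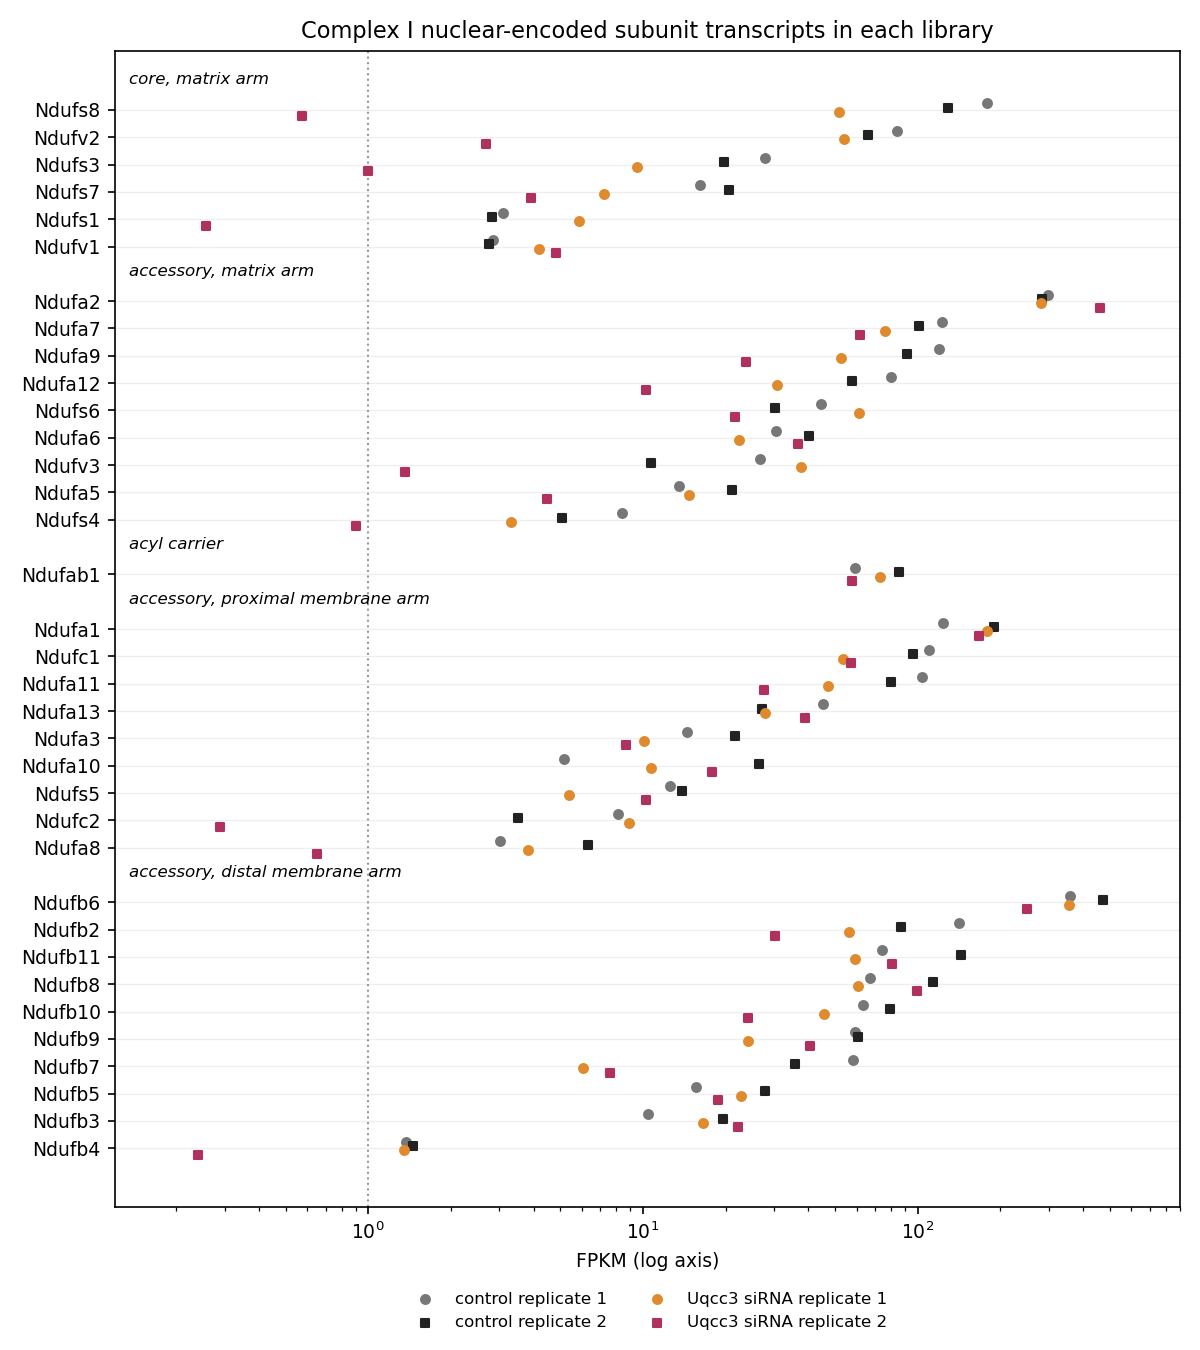
FPKM of the 35 nuclear-encoded complex I subunits (log axis) in each library, 1 row per gene and 1 point per library, grouped by role and ordered by control level; the dotted line marks 1 FPKM. Points of siRNA replicate 2 reach under 1 FPKM in 6 subunits, and Ndufs8 spans 0.572 to 178 FPKM.

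The 6 core subunits of the matrix arm included the subunit with the widest difference, Ndufs8. In Ndufs8, Ndufv2, Ndufs3 and Ndufs1, siRNA replicate 2 was the lowest library by a wide margin. Ndufs8 carries iron-sulfur clusters near the quinone site (mm10 chromosome 19, 3908870 to 3912717). Its level was 178 and 129 FPKM in the controls, 51.6 FPKM in siRNA replicate 1 and 0.572 FPKM in siRNA replicate 2. The deposited bounds implied about 2627, 2106, 507 and 6.00 fragments, a conversion not checked for genes with several transcripts, such as this one. The groups did not overlap, and on the log2 scale siRNA replicate 2 was farther from siRNA replicate 1 than siRNA replicate 1 was from the controls. Its log2 fold change was -4.07 (SE 1.45, limma adjusted p = 0.745).

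Ndufs3, a core subunit that helps to form the quinone-binding module, measured 27.9 and 19.7 FPKM in control libraries and 9.55 and 1.00 FPKM with siRNA (log2 fold change -2.41, SE 1.05). Ndufv2, which holds an iron-sulfur cluster beside the NADH site, stood at 83.99 and 65.9 FPKM against 54.1 and 2.69 FPKM (log2 fold change -2.40, SE 1.20). Ndufs7, which holds the last cluster before ubiquinone, stood at 16.1 and 20.6 FPKM against 7.20 and 3.91 FPKM (log2 fold change -1.60, SE 0.87). In these 3 subunits the groups did not overlap, and siRNA replicate 2 was the lowest library.

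The remaining core subunits were lowly expressed. Ndufv1, which binds FMN and oxidises NADH, measured 2.86 and 2.75 FPKM in control libraries and 4.18 and 4.84 FPKM with siRNA. Both siRNA libraries were above both controls, with a log2 fold change of 0.53 (SE 0.94). Implied fragments were 11.6 to 25.6, but they are uncertain for this gene with 14 transcripts. Its controls, nearly equal in FPKM, implied 11.6 and 25.6 fragments. Ndufs1, the largest core subunit, stood at 3.08 and 2.81 FPKM against 5.86 and 0.257 FPKM, so 1 siRNA library was above both controls and the other below. For siRNA replicate 1 the median log2 difference of the 6 core subunits was -0.83, and for siRNA replicate 2 it was -2.79.

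The 9 accessory subunits of the matrix arm had a median log2 fold change of -0.92, and 4 of them had both siRNA values under both control values (30.0% of all genes). Ndufa12, a relative of the assembly factor Ndufaf2, measured 80.1 and 57.6 FPKM in control libraries and 30.8 and 10.3 FPKM with siRNA (log2 fold change -1.87, SE 0.77, limma adjusted p = 0.745). Ndufa9, which binds a nucleotide near the junction of the arms, stood at 119 and 91.5 FPKM against 52.6 and 23.8 FPKM (log2 fold change -1.53, SE 0.69). Ndufs4, whose loss in mice causes a Leigh-like encephalopathy, stood at 8.40 and 5.09 FPKM against 3.31 and 0.903 FPKM (log2 fold change -1.40, SE 1.00). These 3 subunits were lowest in siRNA replicate 2 and next lowest in siRNA replicate 1.

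Ndufa7 lay closer to the controls, at 122 and 101 FPKM against 76.2 and 61.9 FPKM (log2 fold change -0.69, SE 0.61), and its groups did not overlap. Ndufa2, a subunit with a thioredoxin-like fold, was among the most abundant members, at 298 and 283 FPKM in the controls and 281 and 460.3 FPKM with siRNA. Its siRNA libraries thus stood at either end of the 4 values. The log2 fold changes of Ndufa5, Ndufv3, Ndufa6 and Ndufs6 lay between -0.94 and -0.0080, and the groups of each overlapped. Of these 4, Ndufv3 differed most between siRNA libraries, at 37.5 and 1.36 FPKM around controls of 26.8 and 10.7 FPKM. Ndufab1, the mitochondrial acyl carrier protein, binds both arms of complex I and also serves fatty acid synthesis. Its levels of 59.4 and 85.4 FPKM in the controls and 72.9 and 57.6 FPKM with siRNA overlapped (log2 fold change -0.13, SE 0.63).

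The 9 accessory subunits of the proximal membrane arm had a median log2 fold change of -0.84, and 4 of them had both siRNA values under both control values (30.0% of all genes). Ndufa11, a membrane subunit at the junction with supercomplex partners, measured 104 and 79.9 FPKM in control libraries and 47.2 and 27.5 FPKM with siRNA (log2 fold change -1.31, SE 0.66). Ndufc1 stood at 110.4 and 96.5 FPKM against 53.4 and 57.2 FPKM (log2 fold change -0.89, SE 0.61), and its siRNA libraries were close to each other. Ndufa3 stood at 14.5 and 21.7 FPKM against 10.1 and 8.71 FPKM (log2 fold change -0.85, SE 0.81). Ndufs5, a cysteine-rich subunit facing the intermembrane space, was the remaining member of this arm whose groups did not overlap (log2 fold change -0.74).

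Other proximal subunits did not separate. Ndufa1, an X-linked single-pass subunit, measured 123 and 189 FPKM in control libraries and 179 and 168 FPKM with siRNA, within the range of the controls. Ndufa10, a relative of nucleoside kinases, measured 5.15 and 26.5 FPKM in controls against 10.7 and 17.9 FPKM with siRNA, and its controls differed from each other by 2.16 on the log2 scale. Ndufa8 measured 3.02 and 6.33 FPKM in controls against 3.82 and 0.653 FPKM with siRNA, and Ndufc2 measured 8.12 and 3.51 FPKM against 8.92 and 0.288 FPKM. In both, siRNA replicate 1 lay within or above the controls and siRNA replicate 2 under 1 FPKM. Ndufa13, also known as a regulator of cell death, had a log2 fold change of -0.092 and overlapping groups.

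The 10 accessory subunits of the distal membrane arm had a median log2 fold change of -0.54, and 6 of them had both siRNA values under both control values (30.0% of all genes). Ndufb7, a cysteine-rich subunit on the intermembrane-space side (mm10 chromosome 8, 83566671 to 83571626), had the smallest p of all 35. It measured 58.2 and 35.8 FPKM in control libraries and 6.03 and 7.61 FPKM with siRNA, or 47.0 ± 15.8 and 6.82 ± 1.11 FPKM (mean ± SD, n = 2 each), 14.5% of the control mean. Here the siRNA libraries were alike and both far below the controls. The log2 fold change was -2.59 (SE 0.77, limma adjusted p = 0.745), and Ndufb7 ranked 76 by p among all tested genes.

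Ndufb2 measured 141 and 87.3 FPKM in control libraries and 56.3 and 30.3 FPKM with siRNA (log2 fold change -1.40, SE 0.67). Ndufb10, another cysteine-rich subunit, stood at 63.03 and 79.4 FPKM against 45.7 and 24.2 FPKM (log2 fold change -1.06, SE 0.68). Ndufb9, which binds the acyl carrier protein, stood at 59.1 and 60.8 FPKM against 24.1 and 40.4 FPKM (log2 fold change -0.92, SE 0.67). In all 3 the groups did not overlap, and in Ndufb9, as in Ndufb7, siRNA replicate 1 was the lower siRNA library.

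Ndufb6, the most abundant subunit in the controls, stood at 359 and 472 FPKM against 356 and 249 FPKM, so siRNA replicate 1 lay just under the lower control. Ndufb4 stood at 1.37 and 1.46 FPKM against 1.34 and 0.239 FPKM, with at most 17.6 implied fragments, which are uncertain for a gene with 3 transcripts. Ndufb3 was the distal subunit with a higher mean, at 10.4 and 19.6 FPKM against 16.5 and 22.3 FPKM, and its groups overlapped. Ndufb11, Ndufb8 and Ndufb5 had log2 fold changes of -0.58, -0.16 and -0.017 with overlapping groups.

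**Figure D2:**
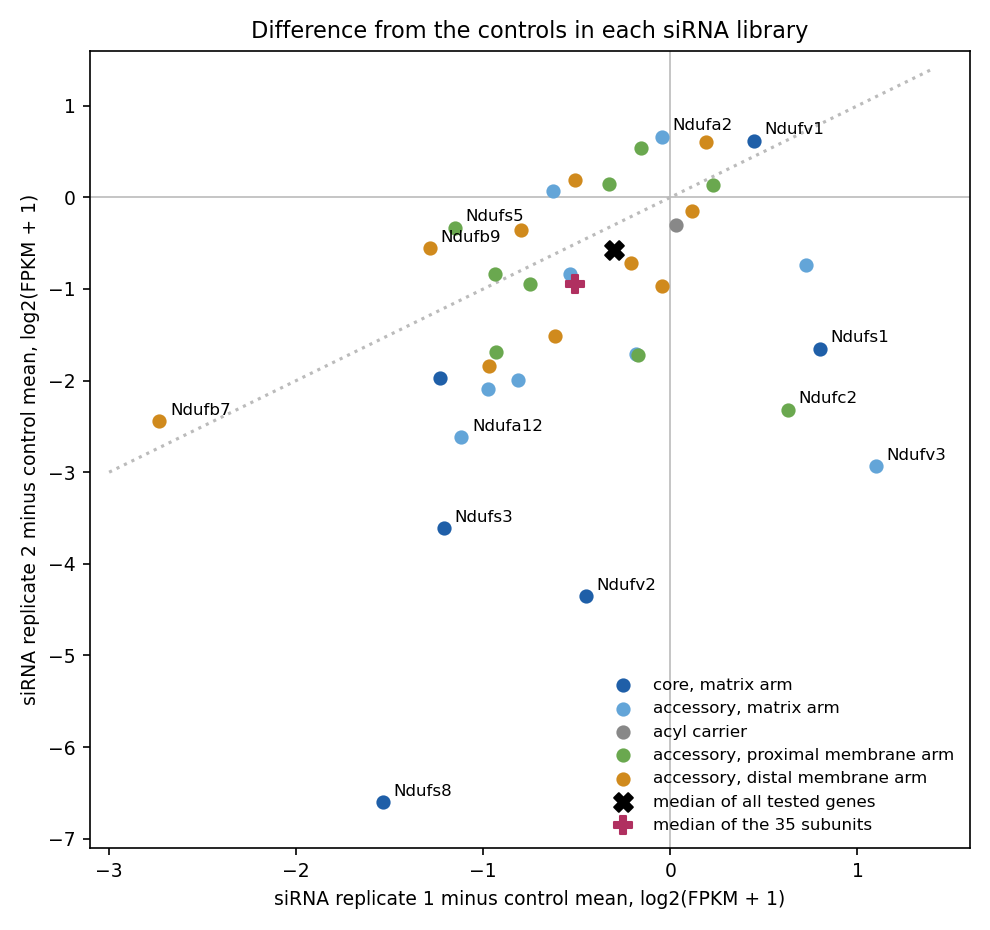
Difference of each siRNA library from the control mean on the log2(FPKM + 1) scale, siRNA replicate 1 on the x axis and siRNA replicate 2 on the y axis, 1 point per subunit coloured by role; the dotted line marks equal differences. Ndufb7 lies near that line at -2.73 and -2.44, and Ndufs8, Ndufv2 and Ndufs3 lie far below it.

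The siRNA libraries differed in how many subunits were low and by how much. A difference of at least 2-fold between them was found in 12 of the 35 subunits (61.0% of all genes), and between the 2 controls in 3 of 35 (29.8% of all genes). In siRNA replicate 1, 7 subunits were at least 2-fold lower than the control mean (20.4% of all genes) and 1 at least 2-fold higher (7.62%). For siRNA replicate 2 the counts were 16 (39.6% of all genes) and 0 (21.5%). Ndufb7, Ndufa12, Ndufs8, Ndufs3 and Ndufs7 were at least 2-fold lower in both siRNA libraries. Ndufb9 and Ndufs5 were so in siRNA replicate 1 alone, and the rest of the 16 in siRNA replicate 2 alone. The median difference from the control mean was -0.51 for siRNA replicate 1, and for siRNA replicate 2 it was -0.95, against -0.30 and -0.57 over all genes. Within siRNA replicate 2 the core matrix-arm subunits had a median of -2.79, the accessory matrix-arm subunits -1.71, the proximal membrane subunits -0.84 and the distal ones -0.64. In siRNA replicate 1 the same medians were -0.83, -0.54, -0.33 and -0.57. No test of the difference between roles was made.

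Summed levels of the subunits were lower in both siRNA libraries. Taken as a share of all FPKM, mitochondrial transcripts included, only siRNA replicate 1 was below the controls. Summed over the 35 subunits, the level was 2390.0 and 2473 FPKM in the controls and 1781 and 1595 FPKM with siRNA. As a share of all FPKM this was 0.350% and 0.356% for the controls, then 0.299% for siRNA replicate 1 and 0.365% for siRNA replicate 2. Mitochondrial transcripts held 28.0% of all FPKM for siRNA replicate 1. Their part was smaller elsewhere: 16.6% for siRNA replicate 2, with 17.4% and 18.0% for control replicates 1 and 2. How far the lower subunit share of siRNA replicate 1 rests on its larger mitochondrial part was not tested. Subunits under 5 FPKM numbered 12 in siRNA replicate 2 and 4 in each of the 3 other libraries. The 5 most abundant subunits, by mean over the 4 libraries (Ndufb6, Ndufa2, Ndufa1, Ndufa7 and Ndufs8), held 45.2% and 47.5% of the control totals and 53.0% and 58.9% of the siRNA totals. The least and the most abundant subunit differed most in siRNA replicate 2, at 0.239 and 460.3 FPKM.

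Transcript length and abundance moved with the lower values. The subunits have short transcripts, with a median of 971 nt against 2421 nt over all tested genes (longest protein-coding transcript in GENCODE M21). Among all tested genes under 1000 nt, 38.6% had both siRNA libraries under both controls, as did 10 of 19 subunits of that length (52.6%). From 1000 to under 2000 nt the share was 38.02% of all genes and 7 of 11 subunits. At 2000 nt or more it was 24.2% of all genes and 1 of 5 subunits. The longest transcript need not be the one expressed. Ndufb2 (4371 nt) and Ndufab1 (3479 nt), both in this class, have 6 and 10 transcripts, and the length correction below used the same lengths. The median log2 fold change under 1000 nt was -0.89 for all genes and -0.74 for the subunits, and from 1000 to under 2000 nt -0.66 and -1.40. Among genes at 100 FPKM or more in the controls, 60.4% lay below both controls and 6 of 9 subunits did (66.7%). From 20 to under 100 FPKM these values were 43.8% and 7 of 13, and under 20 FPKM 22.4% and 5 of 13. After each library was corrected for transcript length, the median was -0.41 both for the subunits and for all genes, and 12 subunits lay below both controls, where 30.6% of all genes did.

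**Figure D3:**
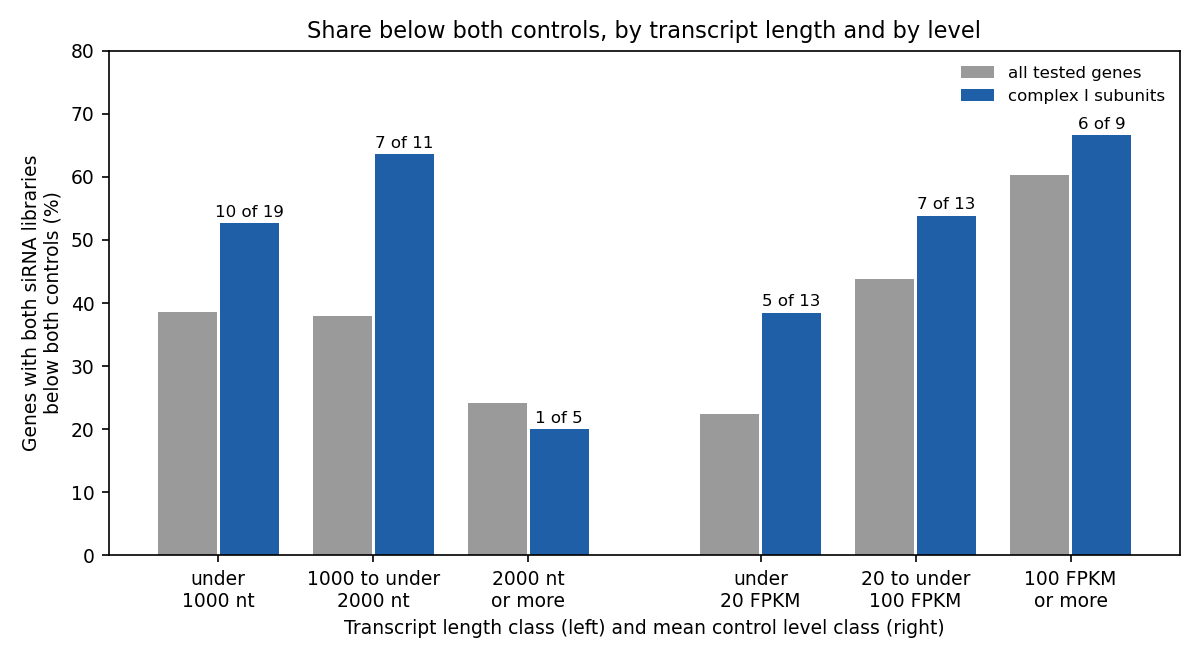
Percent of genes with both siRNA libraries below both controls, for all tested genes (grey) and complex I subunits (blue), in classes of transcript length (left) and of mean control level (right). Numbers above the blue bars are subunits below of subunits in the class; the bars of all genes range from 22.4% to 60.4%.

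Scaling between libraries moved all genes and the subunits together. It shifted the median log2 difference of all genes from -0.39 to -0.085 with TPM, -0.055 with median-of-ratios scaling, 0.012 with quantile normalization and 0.034 with cyclic loess. The subunit median was then -0.46, -0.45, -0.31 and -0.36, with 24, 24, 21 and 21 of 35 subunits lower. Subunits below both controls then numbered 14, 11, 13 and 10, where 21.4%, 19.1%, 18.7% and 18.5% of all genes did so. Subunits above both controls were 3, 4, 4 and 6, against 13.2%, 16.8%, 16.5% and 17.6% of all genes. With no filter, 18 subunits lay below (20.1% of all genes) and 1 above (8.83%), and with a filter of 5 FPKM 17 of 31 lay below (34.8%) and 0 above (6.95%). Ndufs8, Ndufs3, Ndufv2, Ndufs7, Ndufb7, Ndufa12 and Ndufa9 kept a lower mean under each of these 4 scalings and the length correction. So did Ndufb2, Ndufb9, Ndufb10, Ndufs4, Ndufs5, Ndufa3, Ndufa5, Ndufa8, Ndufa11, Ndufc1, Ndufc2 and Ndufv3. The remaining subunits with a lower mean changed sign in some of these settings. Ndufb7 lay at -2.08 to -2.26.

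Without siRNA replicate 2, the subunit median was -0.51 against -0.30 for all genes, 26 of 35 subunits were lower, and 0 passed in limma. Setting siRNA replicate 2 alone against the controls, 5 subunits passed in limma, all lower, where 9.68% of all genes passed lower. These were Ndufs8 and Ndufv2 (adjusted p = 0.0220 each), Ndufs3 (0.0304), Ndufa12 (0.0358) and Ndufa9 (0.0451). The lone library is assumed there to vary like the controls. Of 2475 genes with at least 20 FPKM in every library but siRNA replicate 2, 112 were under 1 FPKM there, among them 1 of the 19 such subunits (Ndufs8). The part of this library, of transcript length and of the lower 2-cell and maternal marker sums in the subunit values was not tested beyond these comparisons.

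Other genes of the pathway were set beside the subunits, and none passed in limma. Of 20 listed complex I assembly factors 15 were tested, with a median log2 fold change of -0.83, and in 7 both siRNA libraries were under both controls (30.0% of all genes). Tmem186, a factor that helps to build the membrane arm, measured 8.06 and 2.38 FPKM in control libraries and was listed at 0 and 0.213 FPKM with siRNA. Ndufaf6 stood at 13.9 and 3.08 FPKM against 3.49 FPKM in siRNA replicate 1 and a listed 0 in siRNA replicate 2. The controls of both genes were themselves far apart. Of 9 listed activators of nuclear respiratory genes 6 were tested, with a median of -0.77. Gabpa stood at 252 and 211 FPKM against 133 and 79.6 FPKM (log2 fold change -1.16, SE 0.61), and its groups did not overlap. Yy1 stood at 13.9 and 15.9 FPKM against 16.1 and 82.4 FPKM, so its higher mean rests on siRNA replicate 2.

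For the 7 complex I subunits of the mitochondrial genome, the groups overlapped in all 7 and the median log2 fold change was -0.27. Set against the control mean, the median log2 difference was 0.51 for siRNA replicate 1 and -1.28 for siRNA replicate 2. The transcript mt-Nd6 measured 722 and 719.9 FPKM in controls against 1585 and 676 FPKM with siRNA, and mt-Nd5 measured 1387 and 1944 FPKM against 2195 and 589.8 FPKM. The summed level of mt-Nd1, mt-Nd2, mt-Nd4, mt-Nd5 and mt-Nd6 was 20964 and 29899 FPKM for the controls and 42340.0 and 10279.6 FPKM for siRNA replicates 1 and 2. Divided by the summed nuclear subunits, it came to 8.77 and 12.1 for the controls and 23.8 and 6.45 for siRNA replicates 1 and 2. The siRNA libraries thus lay on either side of both controls. mt-Nd3 and mt-Nd4l were listed at 0 in some libraries and reached at most 2.96 and 6.25 FPKM.

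Other complexes of the chain were measured in the same 4 libraries. The 9 complex III subunits, the complex that Uqcc3 helps to assemble, had a median of -0.29 and 3 below both controls (33.3%, against 30.0% of all genes). Uqcrc1, a core subunit of complex III, stood at 25.8 and 21.6 FPKM against 1.87 and 1.01 FPKM (log2 fold change -3.36, SE 0.92), while Uqcr10 had 958 and 616 FPKM in the controls and 300.2 and 183 FPKM with siRNA. Both siRNA libraries were low in each. The 24 tested subunits of complexes IV and V had a median of -0.63 and 16 below (66.7%, against 30.0% of all genes and 60.4% of those at 100 FPKM or more in the controls), with Atp5g1 at -2.01 and Cox6a1 at -1.48. For complex II, the 4 subunits had a median of 0.38 and 0 below, and the groups of all 4 overlapped. Sdhd (1.53) stood at 10.5 and 0.261 FPKM against 6.25 and 15.6 FPKM, so its higher mean rests on control replicate 2. Sdha (0.63) stood at 14.3 and 21.9 FPKM against 15.1 and 51.1 FPKM, so its higher mean rests on siRNA replicate 2. No test between lists was made.

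**Figure D4:**
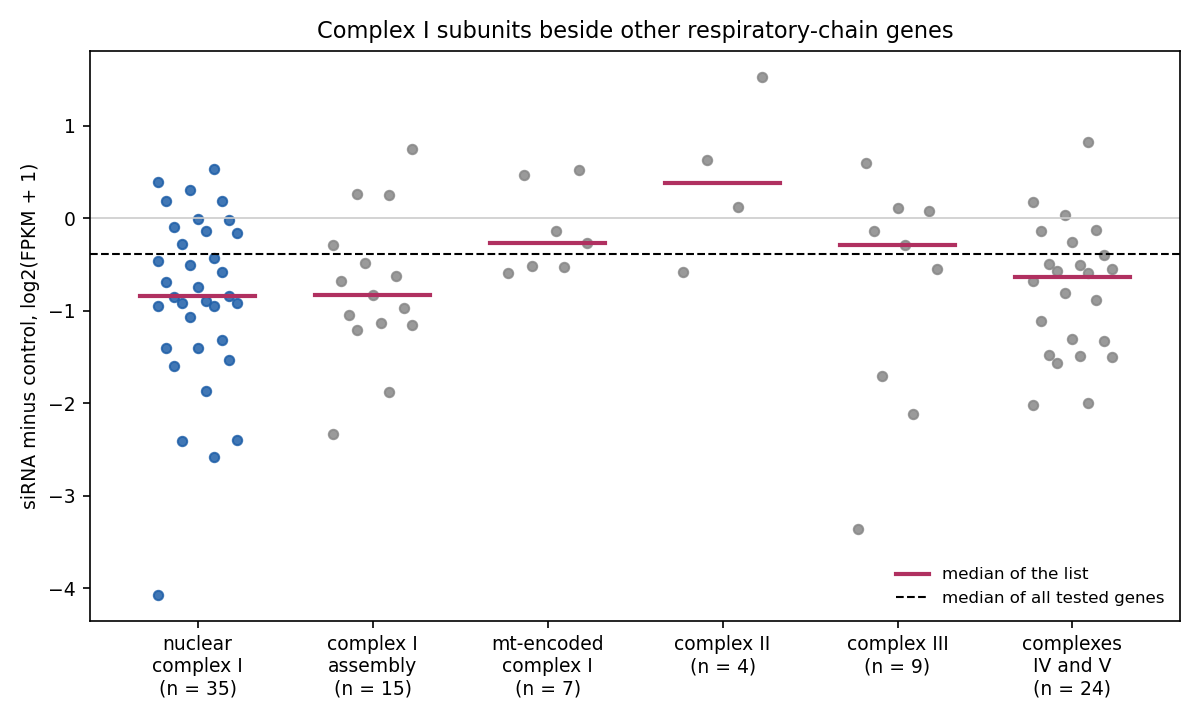
Log2 fold change (siRNA minus control, log2(FPKM + 1) scale) of each tested gene by respiratory-chain list, 1 point per gene; red bars are list medians and the dashed line is the median of all tested genes, -0.39. The nuclear complex I median lies at -0.84, that of complex III at -0.29 and that of complex II at 0.38.

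Some values are uncertain because of neighbouring or similar genes. Of the 35 subunits, 18 overlap another gene model in GENCODE M21, among them Ndufs3 (Kbtbd4), Ndufv2, Ndufa9, Ndufa11 (Vmac), Ndufb2 (Braf) and Ndufa2 (Tmco6). The sources used here do not state strand use in counting, so reads of overlapping genes cannot be told apart. For 6 subunits, Ndufa12, Ndufab1, Ndufb11, Ndufs3, Ndufs5 and Ndufs6, another gene has a transcript at least 95% identical over at least 50% of a coding transcript. Ndufs8, Ndufb7 and Ndufv1 have neither.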

How the data were processed

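Polyadenylated RNA of 4 libraries was amplified with an oligo(dT) single-cell full-length kit, per the labels' protocols, with paired-end reads. The authors deposited 1 FPKM table per library with lower and upper bounds, per the file headers. Cufflinks 2.2.1, Cuffdiff 2.2.1, STAR 2.7.3a, Trim Galore 0.6.5, SAMtools 1.7 and mm10 appear in the submitters' processing notes. The annotation release and counting settings are not given in the sources used here, and 23 of 35 member positions equalled GENCODE M21. Groups came from the treatment label, and replicates were numbered in accession order.

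Rows of one gene identifier were summed (50 identifiers). Genes with at least 1 FPKM in 2 libraries were tested, without 2 genes whose estimate was marked as failed. Values of log2(FPKM + 1) were fitted in R 4.3.3 by limma 3.58.1 with its trend option, two-sided, Benjamini-Hochberg over 12390 genes, threshold 0.05. Tested on simulated data with the spread of these libraries, the fit called 12% of 100 genes set to a 4-fold change and 85% of 100 set to 16-fold, for this comparison over 12390 genes. The simulation gave all 4 libraries the same spread, smoothed over level, and changed only the more abundant genes. Its rates therefore do not cover an outlying library such as siRNA replicate 2, or genes near 1 FPKM. Implied fragments come from taking the upper bound as 2 counting errors above the FPKM. For values up to 30 fragments in genes with 1 transcript, 68.1% to 77.0% came out whole within 0.05, so the fragments describe depth only and no count test was run. Depth was the median ratio of implied fragments to FPKM times transcript length in such genes. Such counts cover counting error only. In genes with several transcripts, such as Ndufs8, Ndufv1 and Ndufb4, the implied fragments were not checked and may not equal read numbers. Similar transcripts were found with BLAST 2.17.0. Alternatives changed the scaling, pseudocount, filter, trend, length correction and libraries used.

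Named with every library's value are the 4 members per role with the smallest unadjusted p, those with a higher siRNA mean and those under 1 FPKM in a library. Each context list gives its 2 genes of smallest p. Library values of Ndufb6, Ndufv3 and the summed mt-Nd genes were added after they were seen. The members, roles and lists were chosen with earlier results of these data known.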

Additional observations from a re-analysis of the deposited data

How the results depend on the processing

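The 0 genes and 0 subunits passing in limma stayed 0 under the alternative scalings, pseudocount, filters, trend and length correction, and ranged from 0 to 1477 genes and 0 to 5 subunits as each library was left out. All of these passed with siRNA replicate 1 left out. The 18 subunits below both controls (30.0% of all genes) became 11 with median-of-ratios scaling (19.1%) and 10 with cyclic loess (18.5%). As each library was left out, fewer libraries had to be ordered. The count was then 27 without control replicate 1 (41.9% of all genes) and 19 without control replicate 2 (44.2%). It was 25 without siRNA replicate 1 (50.5%) and 22 without siRNA replicate 2 (48.3%). The subunit median minus that of all genes was -0.45. It moved to -0.78 with no filter and to -0.0003 with the length correction, and ranged from -0.42 to -0.15 as each library was left out. The causes were not tested.

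The log2 fold changes that changed sign were, with TPM, Ndufb8 0.27, Ndufb5 0.41, Ndufa6 0.14, Ndufs6 0.42, Ndufa13 0.33 and Ndufab1 0.30. With median-of-ratios scaling they were Ndufb8 0.26, Ndufb5 0.39, Ndufa6 0.13, Ndufs6 0.41, Ndufa13 0.32 and Ndufab1 0.29. With quantile normalization they were Ndufb6 0.14, Ndufb4 0.16, Ndufb8 0.32, Ndufb5 0.32, Ndufa6 0.087, Ndufs6 0.33, Ndufa13 0.28, Ndufab1 0.30 and Ndufs1 0.39. With cyclic loess they were Ndufb11 0.11, Ndufb6 0.39, Ndufb8 0.52, Ndufb5 0.41, Ndufa7 0.0057, Ndufa6 0.23, Ndufs6 0.52, Ndufa13 0.43 and Ndufab1 0.51. The length correction gave Ndufb6 0.039, Ndufb5 0.40, Ndufa6 0.23, Ndufs6 0.48 and Ndufa13 0.26. As each library was left out, the log2 fold changes that changed sign ranged from -0.031 to 0.82 for Ndufb3, -0.12 to 0.49 for Ndufa1, -0.89 to 1.27 for Ndufa10, -0.45 to 0.27 for Ndufa13, -0.045 to 0.66 for Ndufa2, -0.63 to 0.065 for Ndufa6, -0.39 to 0.12 for Ndufab1, -0.42 to 0.39 for Ndufb5 and -0.54 to 0.22 for Ndufb8. Others were Ndufc2 from -2.32 to 0.63, Ndufs1 from -1.65 to 0.80, Ndufs6 from -0.74 to 0.73 and Ndufv3 from -2.93 to 1.10, all positive without siRNA replicate 2. None of these subunits passed the test in any of these settings.

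With 2 libraries a group, changes of a few fold mostly went uncalled in simulated data. Values near 1 FPKM rest on few fragments. The title endings differ between the groups, and if they mark a batch it cannot be told apart from the siRNA. No paired analysis was possible because the labels carry no replicate numbers.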
